A study of Mus musculus with 2 samples.

Results

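The insulin-like growth factor genes described here are 10 mouse genes chosen by name: the ligand gene Igf1, the receptor genes Igf1r and Insr, the adaptor genes Irs1 and Irs2, and the binding protein genes Igfbp2, Igfbp3, Igfbp4, Igfbp5 and Igfbp7. All 10 were found by Ensembl gene ID among the 43346 Ensembl genes of each gene table. The RNA was total RNA from midbrain of B6NCrl mouse embryos (a C57BL/6 substrain) aged 15.5 days, with males and females pooled. Replicate 1 was a pool of 78 embryos and replicate 2 a pool of 62, and no treatment, mutation or second tissue was part of the design. Every value is therefore an average over all cell types of the dissected midbrain and over many embryos, and the only difference between libraries that can be described is that between the pools. Of 10 midbrain genes, 9 reached 1 TPM (the deposited level, scaled to transcript length and library total) in both libraries, against 62.4% of protein-coding genes. The homeobox gene En2 stood at 1.21 and 0.76 TPM in replicates 1 and 2. Otx2 is also on the choroid plexus list used below, and no genes of other brain regions were set beside the 10. The labelled tissue was therefore not tested by them.

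Insulin-like growth factors are small secreted proteins related to insulin. They bind a receptor tyrosine kinase, the product of Igf1r, and can also bind the closely related insulin receptor from Insr. The activated receptors phosphorylate the adaptor proteins Irs1 and Irs2, which recruit PI3-kinase and so activate Akt and mTOR, a route known for its effect on growth, survival and maturation of brain cells. Secreted binding proteins hold the ligands in the extracellular space and can block or prolong their action. Igfbp7 is a distant relative that binds the ligands only weakly and is known as a gene of blood vessels.

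All 10 genes were expressed, taken as 1 TPM or more in both libraries, against 35.4% of all Ensembl genes and 62.4% of protein-coding genes. The genes were chosen with earlier results of these data known, so this count is a description and not a test. Together they reached 663 TPM in replicate 1 and 565 TPM in replicate 2. The 5 binding protein genes made up most of this sum, with 569 and 474 TPM. The receptor genes summed to 70.9 and 69.8 TPM and the adaptor genes to 14.7 and 14.8 TPM. Library depth was 38966386 expected counts for replicate 1 and 40419493 for replicate 2, and each of the 10 genes had at least 612 counts in each library. A count of 0 allows up to 3 counts, which at this depth is 0.143 and 0.138 TPM for a gene of 1000 nt. Reads without molecular identifiers are not independent molecules, so intervals and limits here cover counting error only. In whole tissue, fewer cells of a type and less RNA per cell cannot be told apart.

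**Figure D1:**
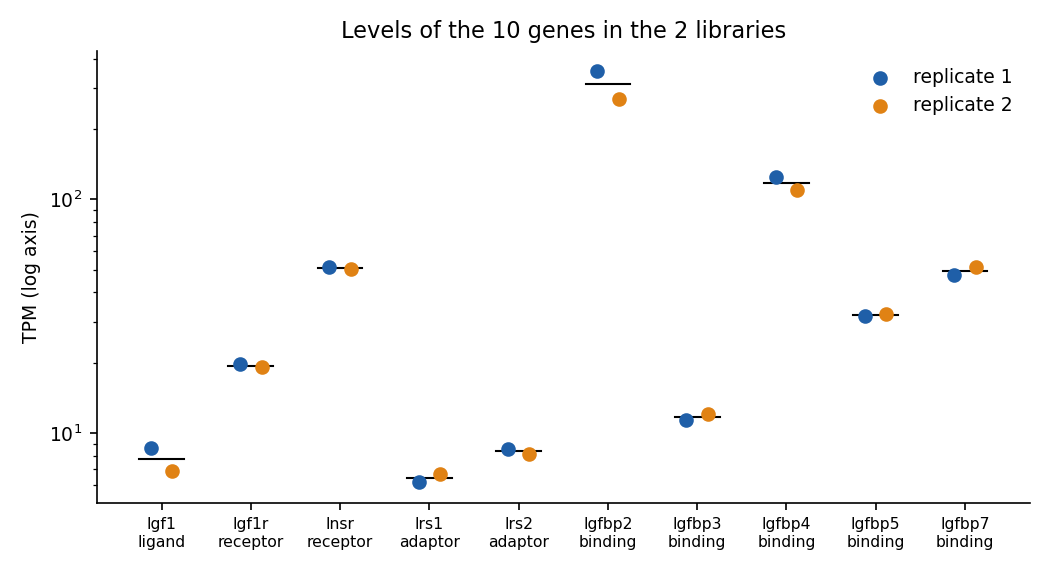
Level of each gene in TPM on a log axis, replicate 1 left of replicate 2, with a line at the mean. Igfbp2 (353 and 268 TPM) and Igfbp4 (125 and 110 TPM) stand highest, and Irs1 (6.17 and 6.67 TPM) lowest.

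In order of mean level, the genes ran Igfbp2, Igfbp4, Insr, Igfbp7, Igfbp5, Igf1r, Igfbp3, Irs2, Igf1 and Irs1. Of the 9 pairs of neighbours in this order, 2 overlapped between the libraries. Insr overlapped Igfbp7, and Irs2 overlapped Igf1, so the order within these pairs is not resolved. Among the 15347 expressed genes Igfbp2 was at rank 449 and Igfbp4 at rank 1476, whereas Irs1 was at rank 10908, above 28.9% of expressed genes. The place of Insr in this order rests on a transcript annotated as noncoding, described with the receptors.

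Igf1 encodes insulin-like growth factor I. It was measured at 8.62 TPM in replicate 1 and 6.92 TPM in replicate 2, a mean of 7.77 ± 1.20 TPM (SD, n = 2). Replicate 1 was thus the higher one in TPM, by 1.25-fold. In counts the libraries were nearly equal, with 887 and 943, and the count ratio of replicate 1 over replicate 2 was 0.972 after scaling to library size (95% counting interval 0.886 to 1.07). The quantities part because the average effective length that the deposited table assigned to Igf1 was 4407 nt in replicate 1 and 5650 nt in replicate 2. That average depends on how reads were divided among the 8 listed transcripts of Igf1.

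Igf1 (chromosome 10, 87858265 to 87937042, mm10, plus strand) has 2 alternative leader exons, both spliced to the same next exon, and alternative coding ends made by a 52-nt exon at 87915298 to 87915349. The coding ends of 3 transcripts are shown because they separate precursor forms that differ in their carboxyl-terminal E peptide, while the mature growth factor is encoded upstream of them. Each runs from the first base after the exons that all 8 transcripts share to the stop codon, 5′ to 3′ (within chr10:87915298-87930734, plus strand), from the GENCODE M21 transcripts, and capitals mark the bases of the 52-nt exon.
Igf1-202: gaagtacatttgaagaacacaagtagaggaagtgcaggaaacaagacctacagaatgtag
Igf1-203: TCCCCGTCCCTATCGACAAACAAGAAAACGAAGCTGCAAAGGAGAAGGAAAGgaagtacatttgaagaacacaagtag
Igf1-201: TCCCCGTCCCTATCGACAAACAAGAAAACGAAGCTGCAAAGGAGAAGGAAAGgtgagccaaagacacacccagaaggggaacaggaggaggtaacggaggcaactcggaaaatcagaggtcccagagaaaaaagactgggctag
Igf1-203 reads the start of the last exon after the 52-nt exon and stops earlier in it than Igf1-202, and Igf1-201 continues past the splice site of the 52-nt exon.

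Igf1-202, which lacks the 52-nt exon and carries a last exon of 6368 nt, led in both libraries with 55.5% of the gene's abundance in replicate 1 and 76.2% in replicate 2. Its mean share was 65.9 ± 14.6% (SD, n = 2), and it held 777 and 885 of the gene's counts. Igf1-203 followed with 13.4% and 7.56%, Igf1-207 with 8.83% and 6.35%, and Igf1-206 with 14.0% and 0%. Igf1-201 took 4.43% and 5.89%. The 4 transcripts with the 52-nt exon together took 31.8% in replicate 1 and 17.1% in replicate 2, from 77.5 and 43.9 expected counts. The 3 transcripts with the upstream leader exon took 77.8% and 90.1%, and the 5 with the downstream leader exon 22.3% and 9.86%. In both libraries the upstream leader and the form without the 52-nt exon had the larger shares. The full last exon of 6368 nt is listed in Igf1-202 alone, which also carries the upstream leader. Reads from the far part of that exon could be given to no other listed transcript, whatever their leader or splicing. These shares thus follow the listed transcripts in part and are not a direct measure of leader or exon use. The smaller shares rest on few counts, and the share with the 52-nt exon averaged 24.4 ± 10.4% (SD, n = 2).

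**Figure D2:**
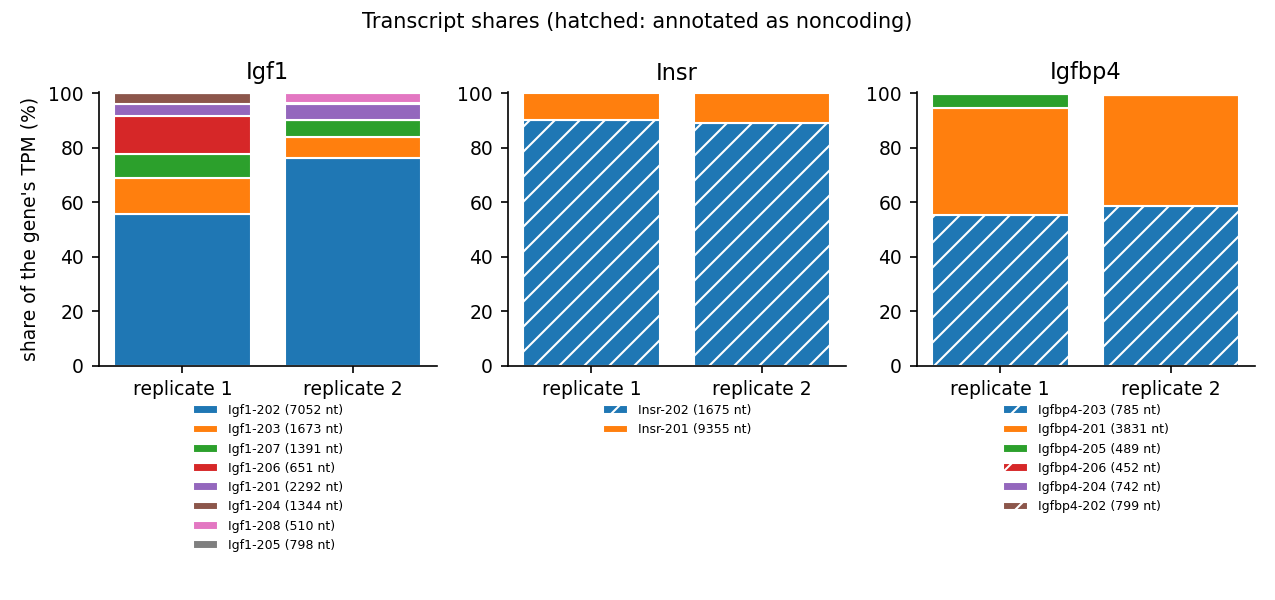
Share of the gene's TPM, in percent, taken by each listed transcript of Igf1, Insr and Igfbp4, replicate 1 left of replicate 2; hatched bars are transcripts annotated as noncoding. The noncoding Insr-202 takes 90.2% and 89.0% of Insr, and the noncoding Igfbp4-203 takes 55.2% and 58.5% of Igfbp4.

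Igf1r encodes the receptor for insulin-like growth factors. It was measured at 19.7 TPM in replicate 1 and 19.2 TPM in replicate 2, a mean of 19.5 ± 0.318 TPM (SD, n = 2), from 2018 and 2036 counts. The libraries thus differed little, with a count ratio of 1.02 (95% counting interval 0.962 to 1.09). The deposited tables list 1 transcript of 4489 nt for Igf1r (chromosome 7, 67952827 to 68233668, plus strand), whereas GENCODE M21 gives the same transcript 11409 nt. Reads from the part added later had no listed transcript to fall on.

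Insr (chromosome 8, 3122061 to 3279617, minus strand) encodes the insulin receptor. Summed over its transcripts it reached 51.2 TPM in replicate 1 and 50.5 TPM in replicate 2, a mean of 50.9 ± 0.453 TPM (SD, n = 2). On that scale Igf1r lay below Insr in both libraries, by a log2(TPM + 1) difference of -1.34 ± 0.00985 (SD, n = 2). The Insr level was made almost wholly by Insr-202, a transcript of 3 exons and 1675 nt that GENCODE M21 annotates as a retained intron. Its last exon runs 278 nt past the end of the third exon of the full-length transcript, into the intron at 3211101 to 3211378 on chromosome 8. Insr-202 stood at 46.2 and 45.0 TPM and took 90.2% and 89.0% of the gene's abundance.

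The full-length coding transcript Insr-201, of 9355 nt and 21 exons, stood at 5.03 TPM in replicate 1 and 5.57 TPM in replicate 2, with 1087 and 1244 counts against 1699 and 1709 for Insr-202. Its mean was 5.30 ± 0.382 TPM (SD, n = 2), which would place Insr below Irs1, last of the 10 genes. With coding transcripts alone, Igf1r lay above Insr in both libraries, by 1.70 ± 0.110 on the log2(TPM + 1) scale (SD, n = 2). As counts per kilobase of the longest listed transcript, Igf1r had 450 and 454 and Insr 298 and 316, and Igf1r was again the higher, by 0.56 ± 0.0503 log2 units. Counts per kilobase include the reads of Insr-202 but divide all Insr reads by the length of Insr-201. Which receptor gene is called higher therefore depends on how Insr-202 and its short length enter the level; these readings were chosen after its share had been seen. Such a split is rare in these tables. Of 9780 expressed protein-coding genes with more than 1 listed transcript, 328 (3.35%) had at least 50% of their TPM on 1 noncoding transcript in both libraries, and 42 (0.429%) had at least 80%.

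In mammals the insulin receptor is known in forms with and without a 36-nt coding exon, and the form without it binds insulin-like growth factor II with higher affinity. That exon lies at chr8:3181702-3181737 (mm10, minus strand). It is shown because it defines the forms, in capitals between 12 nt of each neighbouring exon, from the GENCODE M21 transcript Insr-203.
Insr-203: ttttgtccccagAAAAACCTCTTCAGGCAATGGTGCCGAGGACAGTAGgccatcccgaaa
None of the 2 Insr transcripts in the deposited tables holds the exon, so its use was not measurable from these values.

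Irs1 (chromosome 1, 82233101 to 82291416, minus strand) and Irs2 (chromosome 8, 10984681 to 11008458, minus strand) encode the main receptor adaptors. Irs1 was measured at 6.17 TPM in replicate 1 and 6.67 TPM in replicate 2, a mean of 6.42 ± 0.354 TPM (SD, n = 2). Irs2 was measured at 8.57 and 8.14 TPM, a mean of 8.36 ± 0.304 TPM. Irs2 was thus higher than Irs1 in each library, without overlap. Each has 1 listed transcript, and that of Irs2 measures 4024 nt in the tables against 6323 nt in GENCODE M21. Exons of Irs1 share 2822 bases with exons of Gm9747 on the opposite strand, which had 1384 and 1185 counts. Strand use in the counting is not given in the sources used here, so the assignment between Irs1 and Gm9747 is uncertain, although the posterior SD of the Irs1 count was only 1.40% and 1.36% of its mean. Exons of Irs2 share 162 bases with 9530052E02Rik, which had 6.07 and 12.2 counts.

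Igfbp2, whose product binds both growth factors and is known from neural progenitors, meninges and choroid plexus, was the most abundant of the 10 genes. It was measured at 353 TPM in replicate 1 and 268 TPM in replicate 2, a mean of 311 ± 60.0 TPM (SD, n = 2). It alone made up 62.1% and 56.6% of the summed TPM of the 5 binding protein genes. The transcript Igfbp2-201 took 98.2% and 99.1% of its abundance, and Igfbp2-202, which begins at another first exon, 1.69% and 0.77%.

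RefSeq places starts of Igfbp2 in a pair of 300-base windows on chromosome 1 (GRCm38.p6, plus strand), which are shown because their first exons differ so widely in use. The first, chr1:72824230-72824529, holds the start of Igfbp2-201 at 72824503. The second, chr1:72825137-72825436, holds that of Igfbp2-202 at 72825322. Capitals mark matches, on both strands, to GGGCGG (the GC box read by Sp1-type factors), TATAAA (the TATA box) or GTAAACA (a Foxo-type site).
Igfbp2 first window: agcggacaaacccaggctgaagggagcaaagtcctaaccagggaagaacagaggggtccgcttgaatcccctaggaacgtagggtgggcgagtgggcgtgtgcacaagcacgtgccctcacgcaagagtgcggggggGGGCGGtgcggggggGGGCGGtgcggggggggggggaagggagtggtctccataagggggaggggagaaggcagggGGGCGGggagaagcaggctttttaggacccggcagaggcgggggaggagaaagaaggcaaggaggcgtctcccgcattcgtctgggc
Igfbp2 second window: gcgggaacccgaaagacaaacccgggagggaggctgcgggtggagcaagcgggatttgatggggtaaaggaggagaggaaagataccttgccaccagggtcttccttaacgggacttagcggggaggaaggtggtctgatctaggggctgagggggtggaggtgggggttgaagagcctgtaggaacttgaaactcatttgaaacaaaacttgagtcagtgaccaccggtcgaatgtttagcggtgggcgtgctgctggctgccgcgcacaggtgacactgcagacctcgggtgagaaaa
The first window held 3 matches to GGGCGG and was 67.0% G and C, and the second held 0 and was 57.3% G and C. GGGCGG occurred in 35.7% of all 32851 RefSeq windows of this kind, TATAAA in 13.6% and GTAAACA in 3.65%. A match of letters is a description only.

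Igfbp4 (chromosome 11, 99041244 to 99054392, plus strand) encodes a binding protein best known as an inhibitor of growth factor action. It was measured at 125 TPM in replicate 1 and 110 TPM in replicate 2, a mean of 117 ± 10.6 TPM (SD, n = 2), from 5460 and 5117 counts. Here too a noncoding transcript carried much of the level. Igfbp4-203, a processed transcript of 785 nt, took 55.2% and 58.5% of the abundance but only 1104 and 1064 of the counts. The coding Igfbp4-201, of 3831 nt, took 39.4% and 40.9% with 4294 and 4044 counts. With coding transcripts alone Igfbp4 stood at 55.8 and 45.3 TPM, a mean of 50.6 ± 7.37 TPM (SD, n = 2), and still ranked second among the 10 genes, although its libraries then spanned those of Igfbp7.

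Igfbp7 (chromosome 5, 77349240 to 77408041, minus strand) was measured at 47.5 TPM in replicate 1 and 51.4 TPM in replicate 2, a mean of 49.4 ± 2.75 TPM (SD, n = 2), with nearly all of it on Igfbp7-201 (99.5% and 100%). Exons of Igfbp7 share 85 bases with exons of Polr2b on the opposite strand, which had 4778 and 4921 counts. The assignment of reads in these bases is uncertain, since strand use in the counting is not given. Igfbp5 (chromosome 1, 72857932 to 72874884, minus strand), whose product binds extracellular matrix, was measured at 31.6 and 32.3 TPM, a mean of 31.9 ± 0.474 TPM, with Igfbp5-201 at 96.7% and 100%. Igfbp3 (chromosome 11, 7206086 to 7213923, minus strand), whose product carries most of the circulating growth factor in adults, was measured at 11.4 and 12.1 TPM, a mean of 11.7 ± 0.488 TPM, with Igfbp3-201 at 97.3% and 95.7%. These 3 genes lay in the same order in both libraries, and none overlapped another. Igfbp5 lay below Igfbp2 by -3.23 ± 0.30 on the log2(TPM + 1) scale (SD, n = 2), with -3.44 in replicate 1 and -3.02 in replicate 2.

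**Figure D3:**
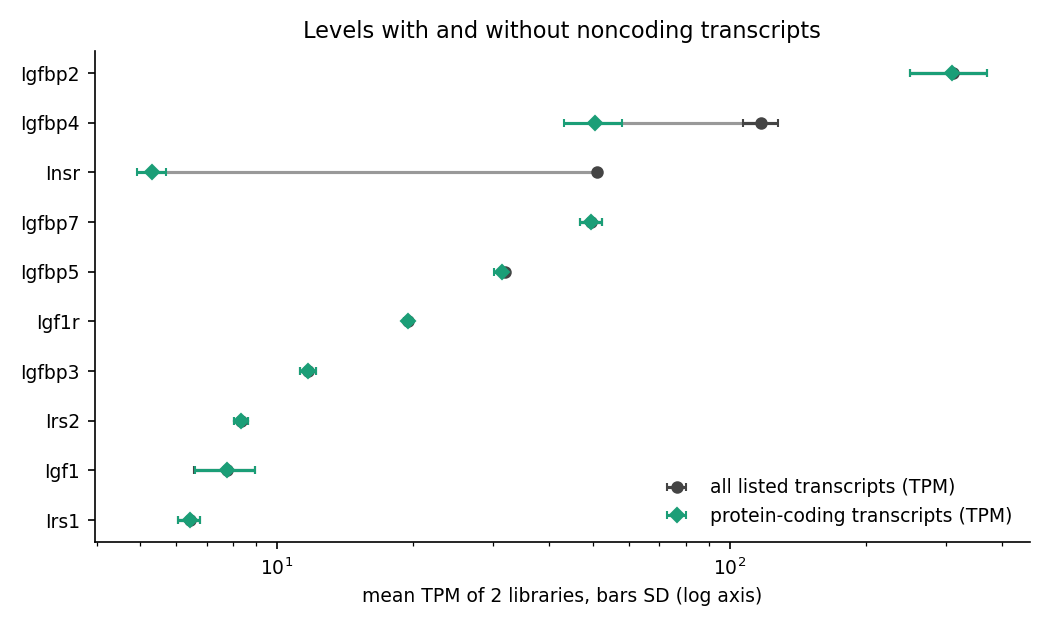
Mean TPM of the 2 libraries on a log axis with SD bars (n = 2), for all listed transcripts (circles) and for transcripts annotated as protein-coding (diamonds). Insr falls to 5.30 TPM and Igfbp4 to 50.6 TPM with coding transcripts alone, and the other 8 genes stay near their places.

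The ratio of expected counts, replicate 1 over replicate 2, was scaled with TMM library sizes, and a ratio of at least 1.5-fold in either direction counted as a difference. None of the 10 genes reached it, against 8.16% of the 18269 genes that averaged at least 10 counts (4.12% higher in replicate 1 and 4.04% higher in replicate 2). This share is largely one of sparsely counted genes, since 6 of the 7790 genes that averaged at least 1000 counts (0.077%) reached 1.5-fold, so the count of 0 does not set the 10 genes apart. The median log2 ratio was -0.04 over the 10 genes and 0.0026 over all genes tested. With 1 library on each side no p-value is given, and no further library could check a difference.

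The ratio farthest from 1 was that of Igfbp2, with 9916 counts in replicate 1 and 7796 in replicate 2. Igfbp2 was 1.31-fold higher in replicate 1 (95% counting interval 1.28 to 1.35). Of the 7790 genes with at least 1000 counts on average, 38 (0.488%) had a ratio at least as far from 1. Igfbp4 was 1.10-fold higher in replicate 1 (95% counting interval 1.06 to 1.15), and Irs1 had a ratio of 0.925 (0.858 to 0.998). The overlapping Gm9747 ran the other way, with 1384 and 1185 counts, so the Irs1 ratio shares the uncertainty of that assignment. The intervals of the other 7 genes included 1. Spike-in scaling, which shifts all log2 ratios by 0.0847, turned the sign of Igf1, Insr, Igfbp3 and Igfbp5, whose ratios lay near 1. Under it the interval of Irs1 included 1 (0.910 to 1.06), and those of Igf1r (1.02 to 1.16) and Irs2 (1.01 to 1.23) excluded it. Scaling by total expected counts also brought 1 into the interval of Irs1 (0.860 to 1.0004). With DESeq2 size factors the interval of Irs1 excluded 1 (0.852 to 0.991), as did that of Igfbp7 (0.848 to 0.997). The intervals of Igfbp2 (1.35 to 1.44) and Igfbp4 (1.12 to 1.21) with spike-in scaling excluded 1, as did their intervals under every other scaling.

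**Figure D4:**
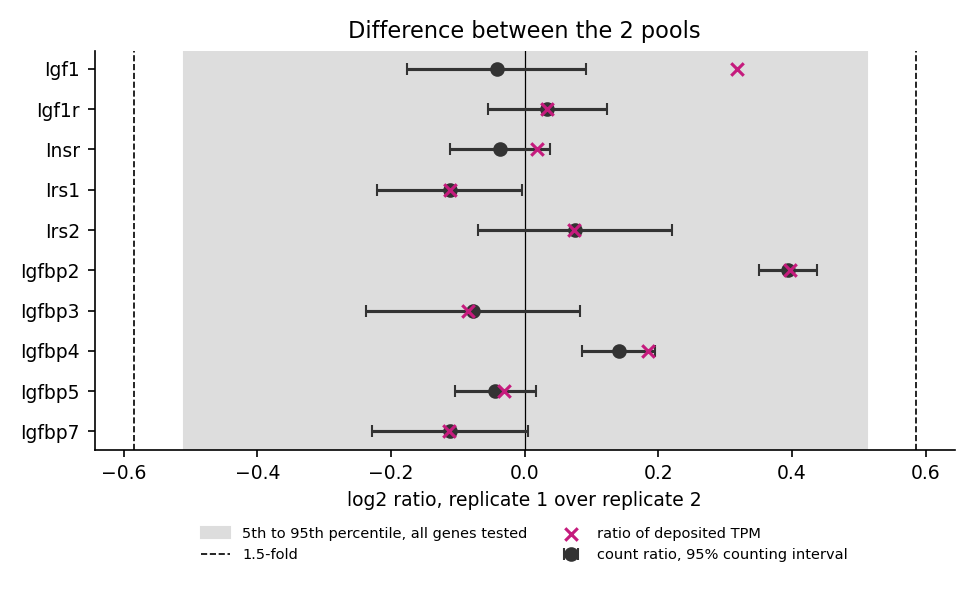
Log2 ratio of each gene, replicate 1 over replicate 2, from TMM-scaled counts (circles, with 95% counting intervals) and from the deposited TPM (crosses); the grey band holds the middle 90% of all genes tested and dashed lines mark 1.5-fold. Igfbp2 lies farthest from 0 at 0.39, and for Igf1 the TPM ratio (0.32) lies apart from the count ratio (-0.04).

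Several marker lists, of cell types that may carry Igfbp2 and of others, also summed higher in replicate 1. The 10 meningeal and fibroblast genes, all expressed, summed to 521 TPM in replicate 1 and 452 TPM in replicate 2. The 10 radial glia genes, all expressed, summed to 1709 and 1617 TPM. The 10 endothelial genes, all expressed, summed to 320 and 288 TPM, but to 212 and 201 TPM without Cldn5 (108 and 87.2 TPM). The 10 mural cell genes, all expressed, summed to 228 and 184 TPM, but to 75.7 and 71.9 TPM without Vtn (152 and 112 TPM). The 7 choroid plexus genes, with 6 expressed, summed to 332 and 363 TPM, and to 95.2 and 94.0 TPM without Ttr, which is also on the liver list. Sums without the most abundant gene were added after the values had been seen.

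Lists of other cells differed by unlike amounts and in either direction. The 10 immature neuron genes, all expressed, summed to 12065.3 TPM in replicate 1 and 12234.5 TPM in replicate 2. The 10 muscle, cartilage and skin genes, with 3 expressed, summed to 44.6 and 55.9 TPM. Of these, 2 were past 1.5-fold higher in replicate 1 and 3 higher in replicate 2, among them Krt5 with 4 and 238 counts. Over all genes tested, 4.12% and 4.04% were past it. The 10 microglia and macrophage genes, all expressed, summed to 213 TPM in replicate 1 and 169 TPM in replicate 2. The 9 erythroid genes, all expressed, summed to 14923 and 11733 TPM, but the globin genes Hbb-y (121 and 171 TPM) and Hba-x (26.7 and 35.9 TPM) went the other way. Of 10 liver genes, with 4 expressed, 8 were past 1.5-fold higher in replicate 1, among them Alb with 209 and 4 counts, and without Ttr the list summed to 68.4 and 35.8 TPM. Among the genes of the marker lists only Serpina1a, a liver gene, was at 0 in a library (replicate 2). The part of any of these cells in the Igfbp2 difference was not tested.

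Other ligands, receptors and binding proteins were listed as context, and 4 of 9 were expressed. Igf2, the gene of the fetal growth factor II, stood at 130 TPM in replicate 1 and 103 TPM in replicate 2. Igf1 lay below Igf2 in both libraries, by -3.74 ± 0.03 on the log2(TPM + 1) scale (SD, n = 2). The size of this difference depended on the reading, with -3.08 for coding transcripts alone and -2.42 as counts per kilobase of the longest listed transcript. Igfbpl1, the gene of a binding-protein-like secreted protein of developing brain, stood at 53.5 and 46.5 TPM. Igf2r, whose product clears growth factor II, stood at 10.2 and 9.51 TPM. Igfbp6 stood at 3.51 and 2.13 TPM.

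Igfbp6 was the only one of the 62 tested pathway genes past 1.5-fold, at 1.64-fold higher in replicate 1 (95% counting interval 1.15 to 2.38) from 83 and 52 counts. The background in that direction was 4.12% of all genes tested. The expressed threshold was missed by Insrr, at 0.56 and 0.54 TPM, and by Igfbp1, with 10 and 2 counts. Igfals had 1 and 4 counts, Ins2 had 0 and 3 counts, and Ins1 was listed at 0 in both libraries. Insulin RNA was thus barely detected, with 3 counts in all. Beside Igfbp1, a liver gene, 8 of 10 liver genes were past 1.5-fold higher in replicate 1; their part in its counts was not tested.

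Of the genes that cut or protect binding proteins, 4 of 8 were expressed. Plat, the tissue plasminogen activator gene, stood at 82.3 TPM in replicate 1 and 73.3 TPM in replicate 2. Htra1, a secreted protease gene, stood at 15.5 and 12.7 TPM. Adamts1, a metalloprotease gene, stood at 5.34 and 5.42 TPM, and Stc1, a stanniocalcin gene, at 3.74 and 2.86 TPM. Pappa, whose product cleaves Igfbp4, was below the threshold at 0.76 and 0.74 TPM. So were Pappa2 (0.35 and 0.51 TPM) and Stc2 (0.76 and 0.93 TPM), and Klk1 was listed at 0.

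**Figure D5:**
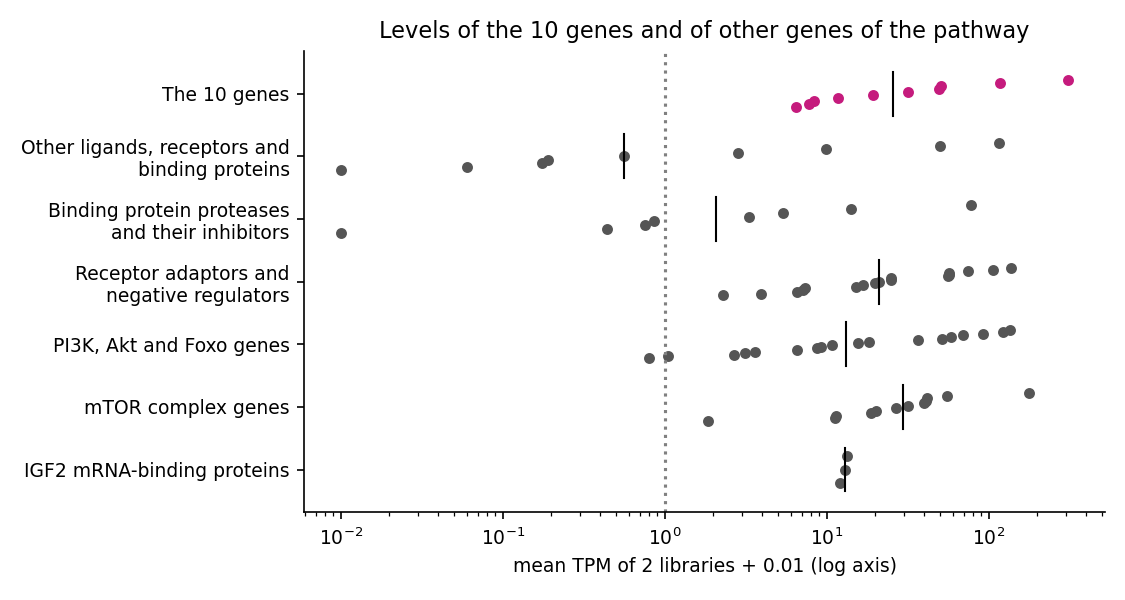
Mean TPM of the 2 libraries plus 0.01 on a log axis for the 10 genes and for 67 other genes of the pathway in 6 lists; each point is a gene, the black line is the list median and the dotted line marks 1 TPM. The intracellular lists lie nearly wholly above 1 TPM, and the lists of other ligands and of proteases spread below it.

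Of the genes that act inside the cell, nearly all listed here were expressed, in TPM over all listed transcripts. All 17 adaptors and negative regulators were expressed, led by Grb2 (139 TPM in replicate 1 and 136 TPM in replicate 2), Socs2 (106 and 105 TPM), Grb10 (74.1 and 74.2 TPM) and Ptpn1 (56.9 and 57.1 TPM). Grb2 links receptors to Ras, while Socs2, Grb10 and the phosphatase Ptpn1 restrain signalling. Of the PI3K, Akt and Foxo genes 16 of 18 were expressed, led by Gsk3b (137 and 133 TPM), Akt1 (133 and 113 TPM), Pik3r2 (93.3 and 91.7 TPM) and Pik3r3 (66.1 and 72.6 TPM). Foxo4 (0.80 and 0.79 TPM) and Foxo6 (1.09 and 0.99 TPM) missed the threshold. The mTOR list holds regulators and substrates beside subunits of the mTOR complexes. All 12 of its genes were expressed, led by Rheb (171 and 184 TPM), which activates mTOR, Eif4ebp2 (57.3 and 53.8 TPM), Rps6kb1 (43.3 and 39.9 TPM) and Rps6kb2 (40.2 and 41.5 TPM). The 3 genes for proteins that bind growth factor II mRNA were close together, with Igf2bp3 at 13.0 and 13.6 TPM, Igf2bp2 at 12.4 and 13.4 TPM and Igf2bp1 at 12.6 and 11.6 TPM. Over the 6 lists 56 of 67 genes were expressed, against 62.4% of protein-coding genes and 35.4% of all Ensembl genes. These lists too were chosen with earlier results of these data known, so the count is a description only. The lists of other ligands (4 of 9) and of proteases (4 of 8) lay below the protein-coding share.

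With protein-coding transcripts alone, a reading added after the values had been seen, 54 of the 67 genes were expressed, and the order within lists changed. Among the adaptors Grb2 averaged 138 TPM, Socs2 85.0 TPM and Grb10 73.8 TPM, whereas Ptpn1 averaged 34.3 TPM, below the adaptor gene Sh2b1 at 56.6 TPM. Shc2 had no TPM on a transcript annotated as protein-coding. However, 17.8 of its 21.1 TPM lay on transcripts absent from GENCODE M21, whose coding status was not determined here. Among the mTOR genes Rheb averaged 117 TPM and Eif4ebp2 55.6 TPM. Rps6kb1 (19.5 TPM) and Rps6kb2 (12.9 TPM) then lay below Tsc2 (39.9 TPM), Mlst8 (27.0 TPM) and Rictor (20.1 TPM). Tsc1 averaged 5.86 TPM with coding transcripts and 32.0 TPM with all, and Rptor 2.07 and 11.3 TPM. With coding transcripts Igf2bp3 averaged 13.3 TPM, Igf2bp1 8.47 TPM and Igf2bp2 6.56 TPM, so these 3 genes lay farther apart. Transcripts not annotated as protein-coding thus carried much of the level of several of these genes, as they did for Insr.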

How the data were processed

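Total RNA longer than 200 nt was sequenced from 2 pools of embryos, with spike-in RNA added and 10 ng RNA per library, per the labels. Each library has 1 deposited file by gene and 1 by transcript, which per the file headers hold expected counts, TPM and FPKM with posterior estimates, and the percent of its gene's TPM that each transcript takes. The authors scaled the deposited TPM over all rows, spike-ins included. The build was mm10 and the annotation GENCODE M4, as the notes accompanying the deposited values state. Aligner, counting tool and strand setting: not given in the sources used here.

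Symbols were matched by gene ID without version (42462 of 43346). Coordinates, transcript names and coding status came from GENCODE M21 on the same build, and all 28 listed transcripts of the 10 genes matched. Promoter windows came from RefSeq on GRCm38.p6, with 9 of the 10 genes matched. Expected counts were rounded, and ratios between libraries used TMM sizes (edgeR 4.0.16 in R 4.3.3) with 0.5 added; intervals are exact binomial (Clopper-Pearson), conditional on the sum of both counts. The ratio and its interval were tested on simulated counts with counting error but no variation between pools. The changes set in them were larger than any ratio of the 10 genes, so variation between pools was not covered. Alternatives were DESeq2 1.42.0 size factors, total and spike-in counts, other thresholds and pseudocounts, FPKM, posterior means, and each replicate alone. Coding transcripts alone, counts per kilobase and intervals under other scalings were added after the values had been seen. The rest used Python 3.11.15, pandas 2.3.3 and scipy 1.17.1.

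All 10 genes are named. Of each other list, the 4 highest genes, those under 1 TPM in either library and those past 1.5-fold are named; transcripts are named from a mean share of 5%. The genes and lists were chosen with earlier results of these data known. No p-value was computed, since there is 1 group with 2 libraries.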

Additional observations from a re-analysis of the deposited data

How the results depend on the processing

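The count of expressed genes (10 of 10) and the absence of a ratio past 1.5-fold held under every alternative run, and 48 to 62 of the 67 pathway genes were expressed under the other thresholds and estimates. The Igf1r to Insr difference (-1.34) became -1.38 with a pseudocount of 0.1 and -1.31 in FPKM, and turned to 1.70 with coding transcripts alone and to 0.56 as counts per kilobase of the longest transcript; by construction the first leaves out Insr-202 and the second does not use its short length. The Igf1 to Igf2 difference (-3.74) became -3.89 with that pseudocount, -3.63 with posterior means, -3.64 in FPKM, -3.08 with coding transcripts alone and -2.42 as counts per kilobase. The Igfbp5 to Igfbp2 difference moved by less than its SD throughout. Single levels moved by more than their SD in 7 genes when TPM was rescaled over Ensembl genes and in 3 with posterior means; spike-in scaling moved 4 ratios outside their counting intervals. The planned share of Insr without the 36-nt exon was not run, since no listed transcript holds that exon. No paired analysis was possible because the series has 1 group. With 2 libraries an SD is itself poorly known.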

Other observations

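Igfbp2 and Igfbp3 each lie next to another binding protein gene. Igfbp2 (72824503 to 72852474, plus strand) and Igfbp5 (72857932 to 72874884, minus strand) face each other on chromosome 1 with 5457 bp between their ends and no annotated gene in between. Their levels differed widely all the same, with 31.6 and 32.3 TPM for Igfbp5 against 353 and 268 TPM for Igfbp2 in replicates 1 and 2. Igfbp3 (7206086 to 7213923, minus strand) and Igfbp1 (7197782 to 7202546, plus strand) lie likewise on chromosome 11 with 3539 bp between them. Igfbp3 had 612 and 667 counts and Igfbp1 had 10 and 2.

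Of the 10 RefSeq promoter windows matched to 9 of the genes, 5 held GGGCGG (Igf1r, Irs1, Irs2, Igfbp7 and the first window of Igfbp2), 1 held TATAAA (Igfbp4) and 0 held GTAAACA. Over all 32851 windows of this kind the shares were 35.7%, 13.6% and 3.65%. With 10 windows the counts do not set the genes apart. Among these 10, the window of Igf1r was the richest in G and C, at 76.0%, and that of Igf1 the poorest, at 52.3%, near the median of 52.7% over all windows. The windows of Igf1 (87860861 to 87861160), Igf1r (67952007 to 67952306) and Irs2 (11008880 to 11009179) do not hold the start of any listed transcript of their gene. The leading Igf1-202 starts at 87859068, and that window lies within the downstream leader exon. These windows therefore need not be the promoters of the transcripts measured.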
